A study of Mus musculus with 50 samples.

Results

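The CC chemokines described here are 9 mouse genes, Ccl2, Ccl3, Ccl4, Ccl5, Ccl6, Ccl7, Ccl9, Ccl12 and Ccl22, followed in RNA sequencing of RAW264.7 cells, an established mouse macrophage line. They were taken by name from the 55416 genes of the deposited tables, of which 21885 are protein coding. Of the 9 members, 8 had enough counts to be tested among 18315 genes, and Ccl12 did not. Values are compared within the batches b1 and b2 named in the labels. In b1 there were control cells at rest (3 libraries), control cells with DMXAA (5), control cells given Sanofi-14h before DMXAA (5), SGK3 knockout cells at rest (3) and with DMXAA (5), and SGK1/SGK3 double knockout cells with DMXAA (5). In b2 there were control cells at rest (3) and with DMXAA (4), SGK1 knockout cells at rest (3) and with DMXAA (4), and double knockout cells at rest (3) and with DMXAA (3). Control cells carry the empty vector for guide RNA and are labelled WT, so every group went through the editing vector. DMXAA, an agonist of mouse STING, was given at 10 µg/mL for 2 h. Sanofi-14h, an inhibitor of SGK kinases, was given at 500 nM for 2 h beforehand. A DMSO vehicle is mentioned in the labels without the libraries that received it. Each genotype is named as 1 line, with nothing said of whether it is a clone. Nothing says that libraries of a group came from separate cultures, so each p-value reflects the scatter among these libraries, which may be technical.

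CC chemokines are small secreted proteins that draw leukocytes along a gradient by binding receptors of the CCR family. Ccl3, Ccl4 and Ccl5 attract monocytes and T cells. Ccl3 and Ccl5 bind Ccr1, and Ccl5 also binds Ccr3. Ccl2, Ccl7 and Ccl12 are ligands of Ccr2 and bring monocytes to inflamed tissue. Ccl6 and Ccl9 are Ccr1 ligands made by resting myeloid cells, and Ccl22 is a Ccr4 ligand that attracts regulatory and type 2 helper T cells. STING is a sensor of cyclic dinucleotides on the endoplasmic reticulum. Once bound, it recruits the kinase TBK1, which activates the transcription factor IRF3, and it also activates NF-kB. Chemokine genes of macrophages are known targets of both. SGK1 and SGK3 are serine/threonine kinases that act below phosphoinositide 3-kinase.

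Depth was 57859509 to 101068327 counts per library in b1 and 63461414 to 112007140 in b2, which sets the precision of the low members. The 8 macrophage markers checked (Adgre1, Cd68, Csf1r, Itgam, Lyz2, Spi1, Fcgr1 and Cd14) had counts in every library. Their summed level was 6624 to 8634 CPM over all libraries of b1. In b2 it was 10880 to 13200 CPM in control libraries and 7061 to 9854 in those of the SGK1 and double knockouts, without overlap. Of the markers of T, B, NK and dendritic cells, neutrophils, fibroblasts, epithelium and endothelium, none exceeded the 1.66 CPM reached by Cd79a, and Cd3g, Ms4a1, Ly6g and Flt3 were at 0 in every library. Cd79a was at most 0.0978 CPM in resting libraries of b1. With DMXAA it was 0.879 to 1.66 CPM in control cells of b1, 0.676 to 1.01 with the inhibitor, 0.258 to 0.652 in the SGK3 knockout and 0.124 to 0.366 in the double knockout. The part of the macrophage sum and of Cd79a in the results below was not tested. Levels are CPM, counts scaled to TMM-corrected library size, given per library or as mean ± SD. Sgk1 RNA with DMXAA was 4.25 ± 2.33 CPM in the SGK1 knockout (n = 4) and 2.46 ± 0.678 in the double knockout (n = 3), against 35.1 ± 6.52 in control cells of b2 (n = 4). Sgk1 itself rose with DMXAA in control cells of b1, from 1.6 ± 0.321 (n = 3) to 50.5 ± 3.18 CPM (n = 5). With DMXAA it was also lower where SGK1 was not edited, at 21.6 ± 2.22 CPM in the SGK3 knockout and 11.5 ± 1.98 with the inhibitor (n = 5 each). A low stimulated level is thus not particular to SGK1 editing. Sgk3 RNA was 104 ± 5.19 CPM in the SGK3 knockout and 100.5 ± 4.34 in control cells of b1 (n = 5 each), so RNA level does not check that label. In 6 libraries of b2, counts relative to the other libraries grew steeply with gene length: E and F of the SGK1 knockout at rest, P and R of the SGK1 knockout with DMXAA, H of the double knockout at rest and X of the double knockout with DMXAA. Their slopes, in log2 CPM per doubling of gene length relative to the mean of b2, were 0.101 (H) to 0.377 (F), over a limit of 0.1. Slopes of the opposite sign occurred in control libraries, at -0.229 in B, -0.194 in L and -0.177 in N, and in T of the double knockout at -0.157. Only the positive side was left out. The 4 libraries of b3, used in an alternative only, had slopes of -0.15 (J), -0.2 (S), -0.146 (V) and -0.386 (W) against the mean of b2. Ccl3 is shorter than 97.3% of the genes with a length estimate, Ccl4 than 98.4%, Ccl5 than 99.1% and Ccl2 than 96.5%, while 47.5% were longer than Ccl9. Where a member's call in b2 differed without these 6 libraries, both values are given. In bulk RNA, fewer expressing cells and less RNA per cell cannot be told apart.

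Of the members, 8 lie in 2 groups on chromosome 11 of GRCm39. Ccl2 (81926397-81928279), Ccl7 (81936538-81938351) and Ccl12 (81992671-81994226), all on the plus strand, span 67830 bp. The other protein-coding genes in that span, Ccl11 and Gm17268, which overlaps Ccl2, were at 0 in every library. Ccl5 (83416604-83421344), Ccl9 (83463745-83469462), Ccl6 (83478708-83483913) and Ccl3 (83538670-83540181), on the minus strand, and Ccl4 (83553410-83555509), on the plus strand, span 138906 bp with no other protein-coding gene between them. Ccl22 (95472218-95478327, plus strand) is on chromosome 8. RefSeq promoter sequences on GRCm38.p6, a different build, were at hand for 5 of the 9: Ccl3, Ccl6, Ccl9, Ccl12 and Ccl22. The 250 bases before the start are shown for Ccl3, which rose with DMXAA in every tested line, and for Ccl9, on the same strand of the same group, which did not rise in control cells. Capitals mark matches, on either strand, to the kB motif, the interferon response motif GAAANNGAAA, the AP-1 motif TGANTCA and the TATA motif TATAA.
Ccl3 (chr11:83649379-83649628, minus strand, 5′ to 3′): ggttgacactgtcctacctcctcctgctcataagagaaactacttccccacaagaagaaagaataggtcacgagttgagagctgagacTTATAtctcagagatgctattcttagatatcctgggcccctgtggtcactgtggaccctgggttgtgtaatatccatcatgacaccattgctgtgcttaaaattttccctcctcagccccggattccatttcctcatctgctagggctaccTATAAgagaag
Ccl9 (chr11:83578637-83578886, minus strand, 5′ to 3′): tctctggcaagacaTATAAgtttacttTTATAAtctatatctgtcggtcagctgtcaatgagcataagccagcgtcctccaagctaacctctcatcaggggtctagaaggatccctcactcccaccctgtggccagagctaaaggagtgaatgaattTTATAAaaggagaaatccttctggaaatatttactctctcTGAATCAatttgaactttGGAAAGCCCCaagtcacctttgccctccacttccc
In Ccl9 a kB match lay 35 to 26 bases before the start and an AP-1 match 53 to 47 bases before it. TATA matches began 236, 223, 222, 93 and 92 bases before the start in Ccl9, those 1 base apart overlapping on opposite strands, and 162 and 11 bases before it in Ccl3. Neither the kB, interferon response nor AP-1 letters were found in the windows of Ccl3, Ccl6, Ccl12 or Ccl22. The search took 1 set of letters per motif, so other forms of a site, or sites outside the 250 bases, would be missed. Among all 32851 promoter windows of that length, 7.3% held the kB motif, 3.0% the interferon response motif, 6.7% the AP-1 motif and 22.8% the TATA motif.

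At rest, RNA of this family was mostly Ccl3 and Ccl9, and with DMXAA it was mostly Ccl4 and Ccl3. Levels of different genes are compared per length, as TPM, which is scaled to gene length and library size. In control cells of b1 at rest (n = 3), Ccl3 was at 212 ± 29.4 TPM, Ccl9 at 172 ± 17.9, Ccl4 at 58.7 ± 24.2, Ccl2 at 2.48 ± 1.37, Ccl5 at 2 ± 0.524 and Ccl6 at 1.37 ± 0.324. Ccl7, Ccl12 and Ccl22 had no counts there. Ccl2 and Ccl5 did not differ beyond their spread, and Ccl9 and Ccl4 did. With DMXAA (n = 5) the order became Ccl4 at 2791 ± 161 TPM, Ccl3 at 2018 ± 172, Ccl9 at 156 ± 8.42, Ccl5 at 156 ± 17.9, Ccl2 at 18 ± 2.95 and Ccl6 at 0.81 ± 0.38. Ccl9 and Ccl5 did not differ beyond their spread. The summed TPM of the 9 members was 448 ± 70 at rest and 5141 ± 299 with DMXAA. In b2 the sums for control cells were 220.1 ± 18.3 and 2705 ± 495 (n = 3 and 4). Ccl9 made up 38.5% of the sum at rest and 3.05% with DMXAA in control cells of b1, and Ccl4 12.8% and 54.3%. The ratio of Ccl4 to Ccl3, whose genes are neighbours facing away from each other, was 0.213 to 0.352 per library at rest and 1.25 to 1.53 with DMXAA. Across all groups at rest the ratio's group mean was at most 0.271, and across all groups with DMXAA it was at least 1.24, in the SGK1 knockout.

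**Figure D1:**
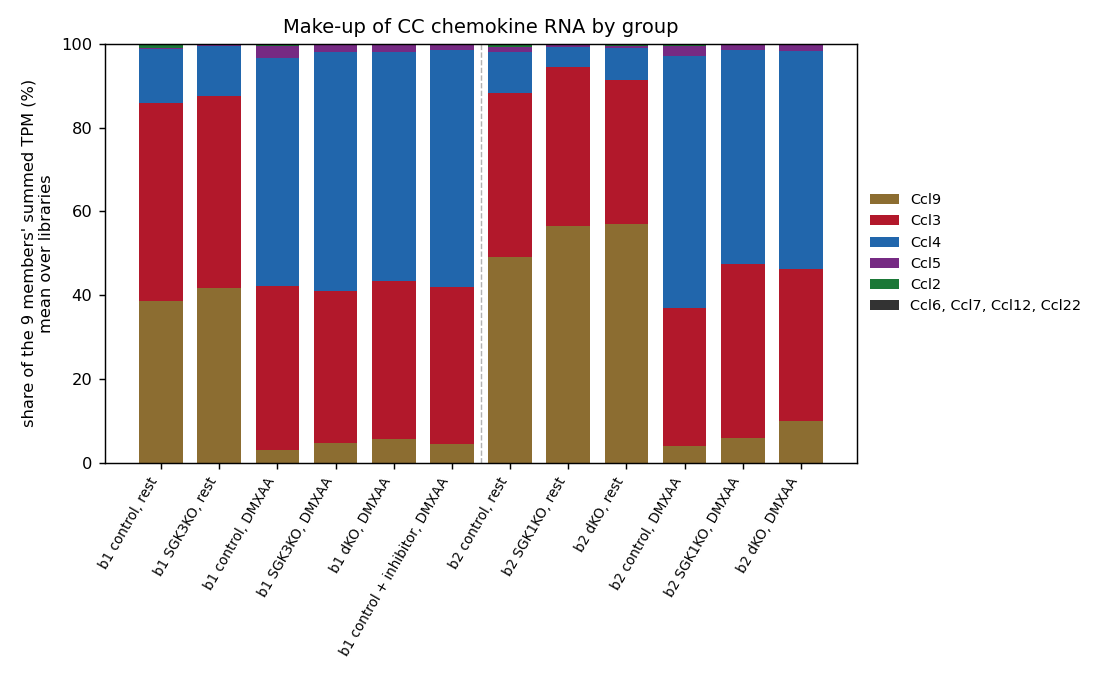
Share of each member in the summed TPM of the 9 CC chemokines, as the mean over the libraries of each group (bars, linear axis from 0 to 100%), with b1 left and b2 right of the dashed line. Ccl9 goes from 38.5% to 3.05% in control cells of b1 between rest and DMXAA, and Ccl4 goes from 12.8% to 54.3%.

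Ccl3 and Ccl4, the macrophage inflammatory proteins 1 alpha and beta, rose with DMXAA in every line tested. Ccl3 in control cells of b1 was 98.2, 80.3 and 75.2 CPM at rest and 767, 793, 907, 902 and 844 CPM with DMXAA. Every stimulated library was above every resting one. The log2 fold change (± SE, edgeR quasi-likelihood test with Benjamini-Hochberg adjustment over all tested genes) was 3.32 ± 0.26 (adjusted p = 6.75e-13) in control cells and 2.93 ± 0.25 (adjusted p = 1.62e-11) in the SGK3 knockout. In b2, Ccl3 in control cells was 34.5, 40.3 and 31.2 CPM at rest and 293, 409, 329.6 and 419 with DMXAA, a log2 change of 3.36 ± 0.26 (adjusted p = 2.97e-12). The SGK1 knockout changed by 4.02 ± 0.27 (adjusted p = 4.72e-14) and the double knockout by 3.13 ± 0.27 (adjusted p = 2.38e-11), again with no overlap between rest and DMXAA. Ccl4 in control cells of b1 was 29.8, 14.7 and 16 CPM at rest and 976, 911, 1057, 975 and 1113 CPM with DMXAA. Its log2 change was 5.64 ± 0.35 (adjusted p = 3.11e-15) there and 5.49 ± 0.35 (adjusted p = 9.88e-15) in the SGK3 knockout. In b2 Ccl4 in control cells was 7.8, 9.04 and 5.95 CPM at rest and 460.4, 680.5, 469 and 702 with DMXAA, a log2 change of 6.25 ± 0.37 (adjusted p = 2.34e-15). The change was 7.29 ± 0.40 (adjusted p = 1.27e-16) in the SGK1 knockout, which had 2.9, 2.19 and 1.24 CPM at rest, and 5.88 ± 0.37 (adjusted p = 1.11e-14) in the double knockout. With the steep libraries left out, the changes of Ccl4 were 7.25 ± 0.47 (adjusted p = 1.71e-12) and 5.99 ± 0.31 (adjusted p = 1.3e-14), and those of Ccl3 were 4.11 ± 0.27 (adjusted p = 1.2e-12) and 3.15 ± 0.19 (adjusted p = 1.17e-13).

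Ccl5, the chemokine also called RANTES, was close to the limit of counting at rest and rose with DMXAA in every line. Control cells of b1 had 0.741, 0.505 and 0.478 CPM at rest and 39, 46.1, 48.1, 51.7 and 47.3 with DMXAA. The log2 change was 6.33 ± 0.46 (adjusted p = 8.03e-14), and 6.20 ± 0.48 (adjusted p = 9.84e-13) in the SGK3 knockout. In b2 the control libraries were 0.547, 1.17 and 0.413 CPM at rest and 11.1, 21.3, 16.6 and 27.2 with DMXAA, the stimulated ones all below those of b1. The log2 change was 4.75 ± 0.43 (adjusted p = 1.17e-10) in control cells, 5.27 ± 0.49 (adjusted p = 1.28e-10) in the SGK1 knockout and 4.93 ± 0.49 (adjusted p = 7.67e-10) in the double knockout. It was 6.29 ± 0.70 (adjusted p = 1.05e-07) and 5.41 ± 0.47 (adjusted p = 5.81e-10) in the knockouts without the steep libraries. Rest and DMXAA did not overlap in any of these lines.

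Ccl2, also called MCP-1, rose in all lines in the fit of all 46 libraries, but from few counts. In control cells of b1 it was 0.461, 1.59 and 1.17 CPM at rest and 8.29, 5.75, 8.81, 9.38 and 7.99 with DMXAA, a log2 change of 2.90 ± 0.79 (adjusted p = 0.00571). In the SGK3 knockout it was 0.238, 0.191 and 0.115 CPM at rest and 1.13, 1.39, 1.01, 1.27 and 2.2 with DMXAA, a change of 2.93 ± 0.86 (adjusted p = 0.0141). The highest stimulated knockout library was thus below the lowest stimulated control library. In b2 control cells were at 0.446, 1.02 and 0 CPM at rest and 6.74, 6.84, 4.58 and 8.65 with DMXAA, a change of 3.78 ± 0.85 (adjusted p = 0.00257). The SGK1 knockout had no Ccl2 count in 3 resting libraries and 2.9, 0.419, 1.59 and 1.26 CPM with DMXAA. That is at least 10.0-fold higher against a floor of 3 read pairs per library (12 counts, at a unit of 4 counts per pair that the values leave in doubt). The double knockout of b2 was at 0.34, 0.129 and 0.327 CPM at rest and 3.33, 3.33 and 0 with DMXAA, where the library at 0 was X, of steep length trend. Its change was 3.05 ± 0.87 (adjusted p = 0.0144), and 3.32 ± 0.68 (adjusted p = 0.000682) without the steep libraries. Some of these calls rested on 1 library. The adjusted p was 0.0539 in control cells of b1 without resting library 1. It was 0.065 and 0.0852 in the SGK3 knockout without resting library 2 or 3, and 0.0509, 0.0614 and 0.0738 in the double knockout of b2 without library T, U or H. In a fit of b2 alone the change did not pass in control cells, at 3.77 ± 1.33 (adjusted p = 0.183), or in the double knockout, at 3.07 ± 1.34 (adjusted p = 0.235). By limma on log2(TPM + 0.1) the change of the double knockout was 1.45 ± 0.91 (adjusted p = 0.353). In the SGK1 knockout the adjusted p was 0.0125 in b2 alone, and 0.074 in b2 alone without the steep libraries.

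Ccl7 and Ccl12, the other Ccr2 ligands beside Ccl2 on chromosome 11, were at the edge of detection. Ccl7 had no count in any resting library of b1 or b2. With DMXAA it had 17, 0, 0, 9 and 15 counts in control cells of b1 and 0, 18, 7 and 15 in those of b2, against a floor of 12. Its response passed the test in none of the lines (adjusted p = 0.0759 in control cells of b1). Ccl12 had counts in 2 libraries only, 7 and 4, both of stimulated control cells of b2.

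Ccl9, also called MIP-1 gamma, was expressed at a steady level and did not rise with DMXAA in control cells. In b1 it was 299.9, 246 and 255 CPM at rest and 258, 222, 261, 266 and 273 with DMXAA, and the groups overlapped. The log2 change was -0.06 ± 0.09 (adjusted p = 0.779), with a 95% interval of -0.23 to 0.11, and in control cells of b2 it was -0.03 ± 0.09 (adjusted p = 0.948), interval -0.21 to 0.15. The SGK3 knockout gave 0.05 ± 0.09 (adjusted p = 0.863). In b2, Ccl9 rose in both lines that lack SGK1. The SGK1 knockout went from 119, 110.2 and 97.9 CPM to 178, 128, 158 and 154, a log2 change of 0.50 ± 0.09 (adjusted p = 7.44e-05). The double knockout went from 174, 153 and 187 CPM to 272, 247 and 208, a change of 0.50 ± 0.10 (adjusted p = 0.000268). In both the lowest stimulated library was above the highest resting one. Without the steep libraries the changes were 0.49 ± 0.12 (adjusted p = 0.00415) and 0.53 ± 0.10 (adjusted p = 7.11e-05). The SGK1 knockout differed from control cells before stimulation, where it was lower, and not detectably after it. The double knockout was not detectably different from control cells at rest (95% interval of the log2 difference -0.19 to 0.20) and was higher with DMXAA.

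**Figure D2:**
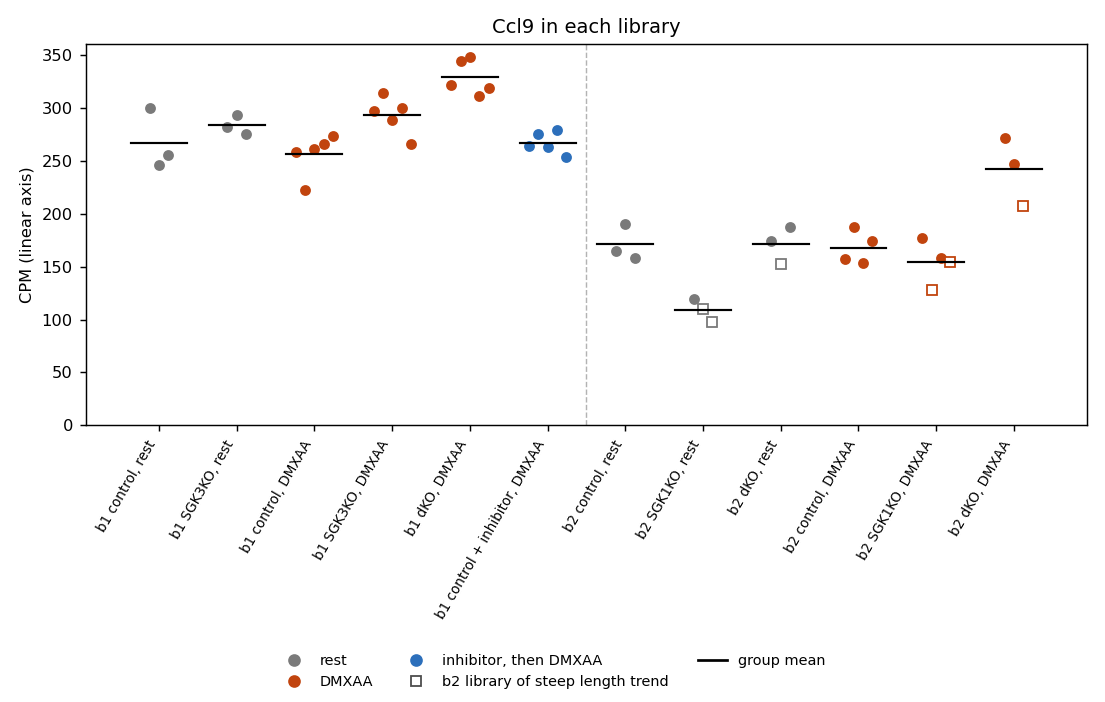
Ccl9 in CPM (linear axis from 0) in each library of b1 (left of the dashed line) and b2 (right), with the group mean as a black line and the 6 libraries of steep length trend as open squares. The double knockout with DMXAA sits above control cells with DMXAA in both batches, and the SGK1 knockout at rest (119, 110.2 and 97.9 CPM) lies below all other groups of b2.

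Ccl6 and Ccl22 were low. Ccl6, the neighbour of Ccl9, had 89, 61 and 52 counts in resting and 60, 38, 27, 33 and 81 in stimulated control libraries of b1, and its response passed the test in none of the lines (log2 change -0.58 ± 0.94 (adjusted p = 0.807) in control cells of b1). Ccl22 had no count in any resting library of b1. With DMXAA it had 0, 15, 11, 21 and 14 counts in control cells and 7, 4, 24, 8 and 62 in the SGK3 knockout. Both responses passed the test (adjusted p = 0.0406 and 0.0367), but control cells overlapped with rest at 0 and most values lay near the floor of 12 counts. Leaving out any 1 resting library of the line lifted the adjusted p of either to 0.118 or more. Control cells also lost the call without stimulated library 2, 3, 4 or 5 (adjusted p = 0.0509 to 0.0594). The SGK3 knockout lost it without its stimulated library 5 (adjusted p = 0.0695). In b2 Ccl22 had 23, 0, 8 and 16 counts in stimulated control cells (adjusted p = 0.0879, and 0.0294 without the steep libraries).

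**Figure D3:**
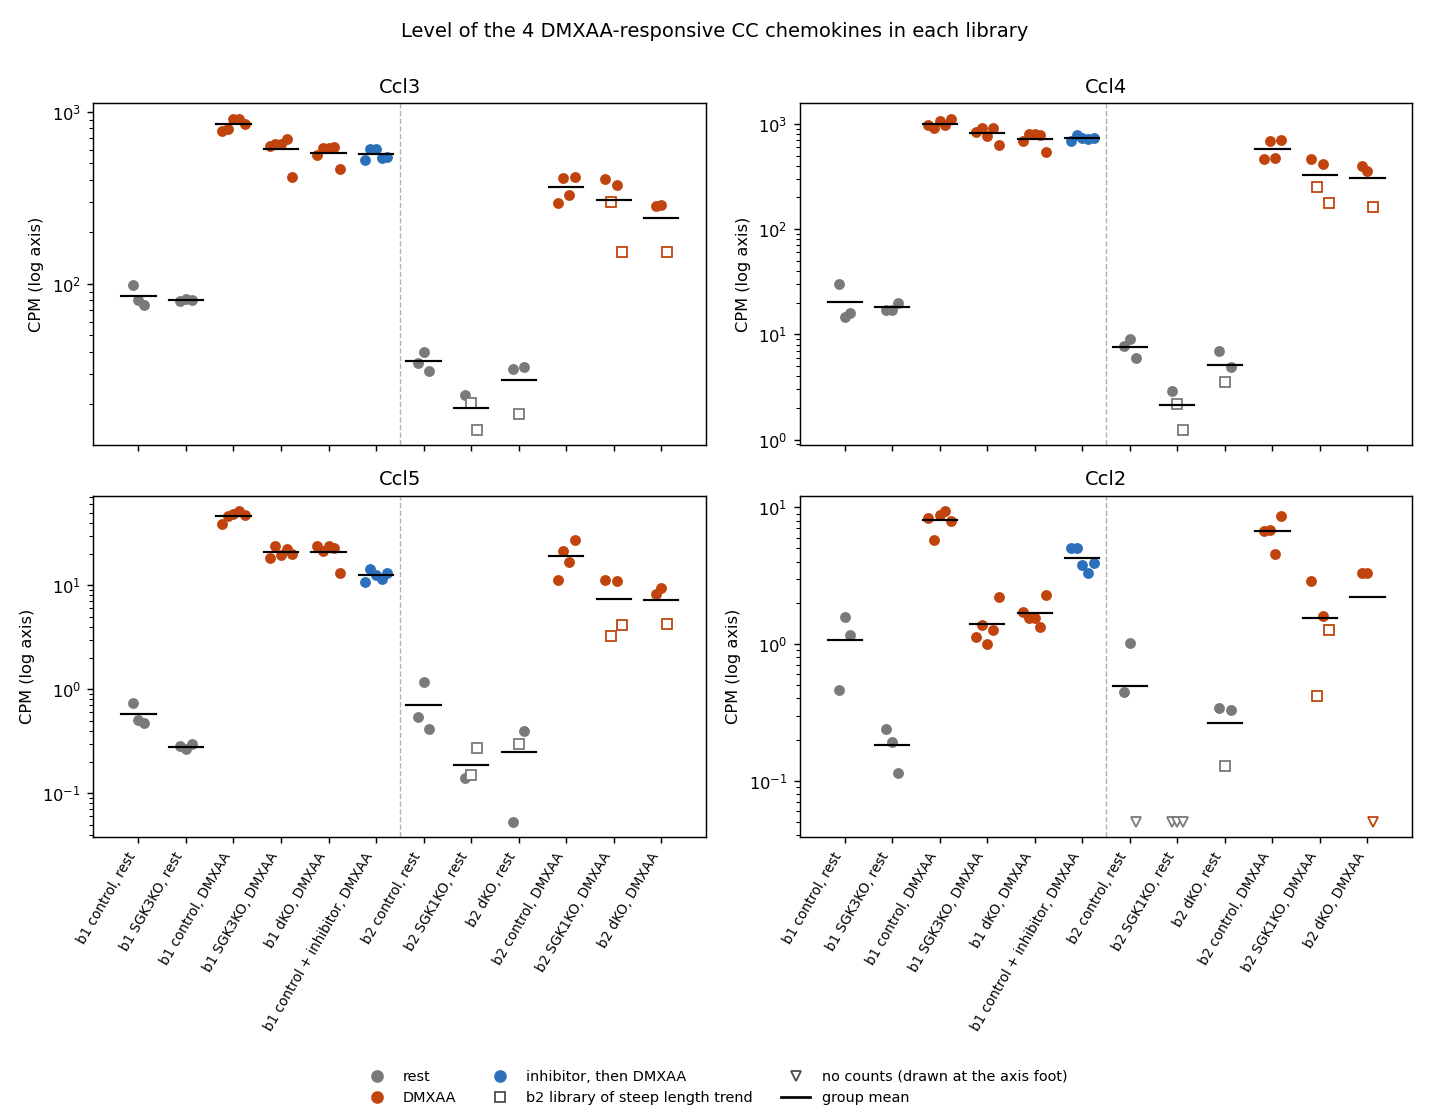
Level of Ccl3, Ccl4, Ccl5 and Ccl2 in CPM (log axis) in each library, with b1 left and b2 right of the dashed line, group means as black lines, the steep libraries as open squares and libraries with no count as open triangles at the foot of the axis. Stimulated libraries lie above resting ones of the same line for all 4 genes, except for Ccl2 in library X of the double knockout, which has no count.

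Counted over the tested members in the fit of all 46 libraries, 5 of 8 rose with DMXAA in control cells of b1 (Ccl2, Ccl3, Ccl4, Ccl5 and Ccl22), where 21.1% of all tested genes were called in either direction. The same 5 rose in the SGK3 knockout, against 16.5% of all genes. In b2, 4 rose in control cells (Ccl2, Ccl3, Ccl4 and Ccl5) against 7.8%, and these 4 and Ccl9 rose in the SGK1 knockout (24.1% of all genes) and the double knockout (14%). None fell. The median log2 change over the 8 members was 4.48 against 0.01 over all tested genes in control cells of b1 and 4.27 against 0.00 over all tested genes in those of b2. With Ccl7 and Ccl22, which had no count at rest, set to no change, the medians were 1.45 and 1.68. The shares for all genes count both directions.

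Before stimulation, in the fit of all 46 libraries, 5 members were lower in the SGK1 knockout than in control cells and none passed the test in the other 2 lines. In the SGK3 knockout 0 of 8 members were called (4.82% of all genes), with 1 at an unadjusted p under 0.05 and 1 called by DESeq2. In the double knockout 0 of 8 were called (6.26%), with 1 at an unadjusted p under 0.05 and 1 called by DESeq2. Ccl5 in the double knockout was at -1.56 ± 0.54 (adjusted p = 0.084), and it passed without the steep libraries, at -1.77 ± 0.54 (adjusted p = 0.0419). The resting SGK1 and double knockouts were not tested against each other. Ccl2 in the resting SGK3 knockout was nonetheless below all control libraries, at a log2 difference of -2.55 ± 0.91 (adjusted p = 0.126), and Ccl5 at -1.03 ± 0.56 (adjusted p = 0.52). The spread in this test is shared with b2. In a fit of b1 alone both were called, 2 of 8 against 10.4% of all genes, at -2.55 ± 0.38 (adjusted p = 7.18e-06) for Ccl2 and -1.03 ± 0.33 (adjusted p = 0.0458) for Ccl5. In the SGK1 knockout the 5 were Ccl2, Ccl3, Ccl4, Ccl5 and Ccl9, against 25.8% of all genes. Ccl3 was 22.7, 20.3 and 14.2 CPM against 34.5, 40.3 and 31.2 in control cells, a log2 difference of -0.89 ± 0.25 (adjusted p = 0.00881). The differences were -1.86 ± 0.35 (adjusted p = 0.000297) for Ccl4, -1.88 ± 0.56 (adjusted p = 0.0127) for Ccl5 and -0.65 ± 0.10 (adjusted p = 6.59e-06) for Ccl9. Ccl2 was at 0 in all knockout libraries and was at least 3.18-fold lower than in control cells, of which library C was at 0 too (adjusted p = 0.00156). Libraries E and F are steep. Without the steep libraries, which leaves the knockout with library D alone and its spread taken from the other groups, 3 of 8 were called against 3.26% of all genes: Ccl2, Ccl4 at -1.38 ± 0.38 (adjusted p = 0.0373) and Ccl9 at -0.52 ± 0.11 (adjusted p = 0.0032). Ccl3 was then at -0.64 ± 0.22 (adjusted p = 0.109) and Ccl5 at -2.31 ± 0.79 (adjusted p = 0.115). With all other libraries kept, Ccl3 also lost its call without library F or B (adjusted p = 0.0954 and 0.0631) and Ccl5 without E or B (0.0602 and 0.159). In a fit of b2 alone Ccl4 and Ccl9 passed (adjusted p = 0.0195 and 0.00367), and Ccl2, Ccl3 and Ccl5 did not (0.0584, 0.0987 and 0.085). In b2 alone without the steep libraries, the lowest adjusted p of the 5 was 0.0536, for Ccl9. Ccl6, with 28, 0 and 0 counts in the knockout and 9, 38 and 58 in control cells, was called once library D was left out (adjusted p = 0.0011), and likewise its response and response difference in the SGK1 knockout (0.00222 and 0.018).

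With DMXAA in b1, Ccl5 was lower than in control cells in all 3 manipulated groups. The control libraries were 39, 46.1, 48.1, 51.7 and 47.3 CPM. The SGK3 knockout was 18.5, 23.8, 19.7, 22.3 and 20 CPM, the double knockout 24.1, 21.2, 24, 22.8 and 13 and the inhibitor group 10.7, 14.3, 12.5, 11.6 and 13.2. All of these libraries lay below the lowest control library. The log2 differences were -1.16 ± 0.28 (adjusted p = 0.00305), -1.14 ± 0.28 (adjusted p = 0.0028) and -1.90 ± 0.28 (adjusted p = 7.12e-06). Ccl2 was lower in both knockouts, where it was 1.13, 1.39, 1.01, 1.27 and 2.2 CPM without SGK3 and 1.71, 1.56, 1.56, 1.34 and 2.3 without both kinases, against 8.29, 5.75, 8.81, 9.38 and 7.99 in control cells. The log2 differences were -2.52 ± 0.63 (adjusted p = 0.00487) and -2.25 ± 0.62 (adjusted p = 0.0103). With the inhibitor Ccl2 was 5.07, 5.08, 3.76, 3.28 and 3.93 CPM, all below the control libraries, and the difference of -0.93 ± 0.59 (adjusted p = 0.461) did not pass the test.

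Ccl3 and Ccl4 differed less. Stimulated control cells had Ccl3 at 767, 793, 907, 902 and 844 CPM. Cells without SGK3 had 632, 644, 651, 698 and 419 CPM, those without both kinases 558, 614, 618, 625 and 464 and inhibitor-treated cells 524, 609, 604, 537 and 546, so no manipulated library reached the control range. The log2 differences were -0.47 ± 0.19 (adjusted p = 0.122), -0.55 ± 0.19 (adjusted p = 0.0483) and -0.58 ± 0.19 (adjusted p = 0.0504). The call in the double knockout was lost when any 1 of its 10 libraries was left out, at adjusted p from 0.0537 to 0.136. For Ccl4 the control libraries were 976, 911, 1057, 975 and 1113 CPM. Cells lacking SGK3 were at 829.7, 922, 774, 921 and 628 CPM, cells lacking both kinases at 688, 800.2, 796, 788 and 539 and inhibitor-treated cells at 688, 779, 732, 717 and 740.0. The SGK3 knockout overlapped with control cells and the other groups lay below them. None of the 3 differences passed, at log2 -0.30 ± 0.23 (adjusted p = 0.552), -0.48 ± 0.23 (adjusted p = 0.202) and -0.46 ± 0.23 (adjusted p = 0.274). Ccl9 went the other way. In the double knockout it was 322, 344, 348, 312 and 319 CPM, above every control library, a log2 difference of 0.36 ± 0.08 (adjusted p = 0.000497). In the SGK3 knockout the difference was 0.20 ± 0.08 (adjusted p = 0.102) and with the inhibitor 0.06 ± 0.08 (adjusted p = 0.816), interval -0.09 to 0.21. Ccl6, Ccl7 and Ccl22 passed in none of the 3 comparisons.

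In counts, 2 of 8 members were called in the SGK3 knockout (10.8% of all genes), 4 in the double knockout (13.4%) and 1 with the inhibitor (8.51%). In a fit of b1 alone, with the spread taken from b1 only, these became 5 (22.9% of all genes), 5 (26.4%) and 4 (20.8%). Ccl3 was then called in each group, at -0.46 ± 0.11 (adjusted p = 0.00315), -0.54 ± 0.11 (adjusted p = 0.000516) and -0.58 ± 0.11 (adjusted p = 0.000484). Ccl4 was called in the double knockout at -0.47 ± 0.15 (adjusted p = 0.0208) and with the inhibitor at -0.46 ± 0.15 (adjusted p = 0.0299), and Ccl2 with the inhibitor at -0.93 ± 0.22 (adjusted p = 0.00268). In the SGK3 knockout the other added members were Ccl6, at -1.12 ± 0.41 (adjusted p = 0.0444), and Ccl9, at 0.21 ± 0.05 (adjusted p = 0.00413). The median log2 difference over the members was -0.60 against -0.01 over all tested genes for the SGK3 knockout, -0.51 against -0.01 over all tested genes for the double knockout and -0.52 against 0.00 over all tested genes for the inhibitor.

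**Figure D4:**
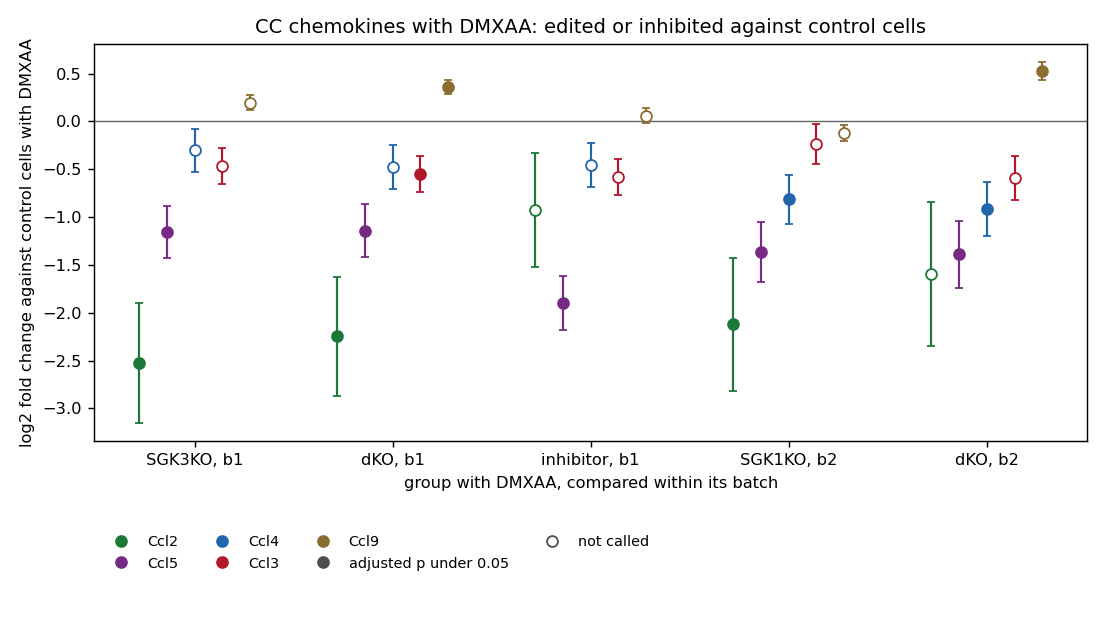
Log2 fold change (± SE) of Ccl2, Ccl5, Ccl4, Ccl3 and Ccl9 with DMXAA in each edited or inhibitor-treated group against control cells with DMXAA of the same batch. Filled points passed the test in the fit of all 46 libraries, and Ccl5 is the one gene filled in all 5 comparisons, from -1.90 to -1.14.

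With DMXAA in b2, in the fit of all 46 libraries, 4 of 8 members were lower in the SGK1 knockout than in control cells, against 20.8% of all genes. Ccl5 was 11.3, 3.23, 11.1 and 4.11 CPM against 11.1, 21.3, 16.6 and 27.2, a log2 difference of -1.37 ± 0.31 (adjusted p = 0.00154). Ccl2 was 2.9, 0.419, 1.59 and 1.26 CPM against 6.74, 6.84, 4.58 and 8.65, a difference of -2.12 ± 0.69 (adjusted p = 0.0258). Ccl4 was 465, 252, 419 and 177 CPM against 460.4, 680.5, 469 and 702, a difference of -0.81 ± 0.26 (adjusted p = 0.0217). Ccl7 had no count in 4 knockout libraries and 0, 18, 7 and 15 counts in control cells (adjusted p = 0.025), and both groups' means lay under the floor. Libraries are listed in the order O, P, Q and R, and the steep ones, P and R, held the lowest Ccl2, Ccl4, Ccl5 and Ccl3. Without the steep libraries 0 of 8 members were called by edgeR, against 11.3% of all genes, and 3 had an unadjusted p under 0.05. The differences were then -0.77 ± 0.29 (adjusted p = 0.0839) for Ccl5, -1.58 ± 0.54 (adjusted p = 0.0559) for Ccl2 and -0.39 ± 0.21 (adjusted p = 0.284) for Ccl4, and Ccl7 had an adjusted p of 0.138. In a fit of b2 alone, where Ccl7 had too few counts to be tested, the adjusted p was 0.0854 for Ccl5, 0.267 for Ccl2 and 0.156 for Ccl4. With b3 libraries added to b2, Ccl4 was at -0.65 ± 0.26 (adjusted p = 0.105). The b3 libraries added, S, V and W, were all knockouts with DMXAA, and no b3 control library was added. The rerun itself can thus enter the difference. The part of the rerun and of the negative length slopes of b3 in that value was not tested. Ccl3, which was not called, went from -0.23 ± 0.21 (adjusted p = 0.469) to 0.11 ± 0.15 (adjusted p = 0.745). With the other steep libraries kept, Ccl2 lost its call without P, R or N (adjusted p = 0.0927, 0.0688 and 0.062), Ccl4 without P, R, L or N (0.0732 to 0.107) and Ccl7 without P, R or L (0.0528 to 0.0623).

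In the double knockout of b2, 3 of 8 members were called, against 21.6% of all genes. Ccl5 was 8.21, 9.41 and 4.25 CPM in libraries T, U and X, against 11.1, 21.3, 16.6 and 27.2 in control cells, a log2 difference of -1.39 ± 0.35 (adjusted p = 0.00274). Ccl4 was 395, 360.1 and 163 CPM, a difference of -0.92 ± 0.28 (adjusted p = 0.0164). Ccl9 was higher, at 272, 247 and 208 CPM against 157, 187, 153 and 174, a difference of 0.53 ± 0.09 (adjusted p = 1.83e-05). For all 3 genes the groups did not overlap. Without the steep libraries the same 3 were called, against 19.6% of all genes, at -1.11 ± 0.29 (adjusted p = 0.00625) for Ccl5, -0.61 ± 0.22 (adjusted p = 0.0457) for Ccl4 and 0.63 ± 0.08 (adjusted p = 5.55e-08) for Ccl9. The call of Ccl4 was lost without library L, N or X alone (adjusted p = 0.0506, 0.0536 and 0.171). It was also lost with b3 knockout libraries, of negative length slope and without a b3 control, added to b2, at -0.57 ± 0.26 (0.148). In a fit of b2 alone Ccl9 was the 1 member called, at 0.55 ± 0.11 (adjusted p = 0.00237), while Ccl5 was at -1.37 ± 0.52 (adjusted p = 0.0971) and Ccl4 at -0.90 ± 0.36 (adjusted p = 0.128). Ccl3 was at a log2 difference of -0.59 ± 0.23 (adjusted p = 0.0647) and passed without library K, T or U (adjusted p = 0.0449, 0.0443 and 0.049).

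The manipulated groups were also compared with each other with DMXAA. With 8 members, counts of 0 or 1 called cannot be told apart from the shares of all genes given beside them. The double knockout and the SGK3 knockout of b1 differed in 0 of 8 members with DMXAA (2.16% of all genes), with 1 at an unadjusted p under 0.05 and 0 called by DESeq2. The difference had a 95% interval of -0.52 to 0.55 for Ccl5 and -0.45 to 0.29 for Ccl3. The inhibitor group differed from the double knockout in Ccl9, which was lower with the inhibitor, at a log2 difference of -0.30 ± 0.08 (adjusted p = 0.0049), and in no other member (11.1% of all genes). In the fit of b1 alone 3 were called (23.5% of all genes), since Ccl2 was higher with the inhibitor, at 1.31 ± 0.23 (adjusted p = 5.09e-05), and Ccl5 lower, at -0.76 ± 0.12 (adjusted p = 2.6e-05). In the fit of all libraries, Ccl5 passed once library 5 of the double knockout was left out (log2 difference -0.89, adjusted p = 0.0365, against -0.76 ± 0.28 (adjusted p = 0.0757) with it). In b2 the double knockout exceeded the SGK1 knockout in Ccl9, at 0.65 ± 0.09 (adjusted p = 3.29e-06), and in no other member (6.63% of all genes). Ccl9 was at 0.63 ± 0.10 (adjusted p = 1.8e-05) without the steep libraries.

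Whether the DMXAA response itself differed was tested as the change in the knockout minus that in control cells. For the SGK3 knockout 0 of 8 members differed (0.191% of all genes), with 0 at an unadjusted p under 0.05 and 0 called by DESeq2. The 95% intervals were -1.42 to 1.16 for Ccl5 and -0.90 to 0.60 for Ccl4. For the SGK1 knockout (2.83% of all genes) and the double knockout of b2 (2.97%) 1 member each differed, Ccl9, at 0.53 ± 0.13 (adjusted p = 0.0175) and 0.53 ± 0.14 (adjusted p = 0.0197). Without the steep libraries these were 0.52 ± 0.14 (adjusted p = 0.0493) and 0.56 ± 0.12 (adjusted p = 0.0031). In a fit of b2 alone neither passed (adjusted p = 0.206 and 0.2). Without control library B the values were 0.45 (adjusted p = 0.0971) and 0.44 (0.0843), and leaving out F for the first or T or H for the second also ended the call. The 2 batches were compared through the control response and through the double knockout with DMXAA, and 0 of 8 members differed in either (3.21% and 7.27% of all genes), with 1 at an unadjusted p under 0.05 and 0 called by DESeq2 for the first and 0 at an unadjusted p under 0.05 and 0 called by DESeq2 for the second. The Ccl5 response of control cells was larger in b1 than in b2 by 1.58 ± 0.57 (adjusted p = 0.149), a difference that passed without the steep libraries, at 1.58 ± 0.46 (adjusted p = 0.0358).

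Of 12 other CC ligands listed, 2 could be tested, 8 had no count in any library and 10 never exceeded the floor of 12 counts. In control cells of b1, Ccl17, a Ccr4 ligand like Ccl22, had no count at rest and at most 11 with DMXAA (adjusted p = 0.03). Its log2 change in control cells of b2 was -0.66 ± 1.51 (adjusted p = 0.917), and its response passed in none of the knockout lines. Ccl25, a Ccr9 ligand, was at 3.17 ± 0.672 CPM at rest and 3.85 ± 0.796 with DMXAA in control cells of b1. It rose in the double knockout of b2, from 1.93 ± 0.773 to 3.59 ± 1.27 CPM, a log2 change of 0.90 ± 0.27 (adjusted p = 0.0179), and passed in no other comparison. Of 15 receptors, 8 could be tested. Ccr2, the receptor of Ccl2, was at 1.83 ± 0.65 CPM at rest and 2.66 ± 0.619 with DMXAA in control cells of b1, while Ccr1, a receptor of Ccl3, was at 0.314 ± 0.156 and 0.225 ± 0.089. The receptor that moved in all lines was Ccrl2, a non-signalling receptor that holds chemerin at the cell surface. It rose from 0.818 ± 0.622 to 54.5 ± 5.77 CPM in control cells of b1, a log2 change of 6.05 ± 0.56 (adjusted p = 8.33e-11). With DMXAA it was lower in the SGK3 knockout at 25 ± 4.04 CPM, the double knockout at 16.9 ± 7.28 and the inhibitor group at 13.4 ± 2.75 (log2 -1.13 ± 0.35, -1.69 ± 0.35 and -2.02 ± 0.36, adjusted p = 0.0284, 0.000547 and 0.000116). In those 3 comparisons it was the 1 receptor of 8 called. In b2 with DMXAA it did not pass. The log2 difference was 0.14 ± 0.39 without SGK1 (adjusted p = 0.863) and -0.66 ± 0.43 without both kinases (adjusted p = 0.294). At rest it was lower in the SGK1 knockout, at 0.0292 ± 0.0506 against 0.551 ± 0.192 CPM (adjusted p = 0.00435). Its response was larger there than in control cells (adjusted p = 0.0347). Ccr10, a receptor of Ccl27 and Ccl28, fell from 2.48 ± 0.353 to 0.894 ± 0.251 CPM with DMXAA in control cells of b1, a log2 change of -1.48 ± 0.35 (adjusted p = 0.00135). In control cells of b2 its change was -0.68 ± 0.37 (adjusted p = 0.34), and its response passed in none of the knockout lines. Ccr6, the receptor of Ccl20, had no count in control cells of b2 with DMXAA and 0.239 ± 0.163 CPM in the SGK1 knockout (adjusted p = 0.0466).

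Lists of known early targets give the setting. Of 16 tested NF-kB targets, 12 rose and 1 fell with DMXAA in control cells of b1, led by Tnf (log2 3.88 ± 0.20), Cxcl2 (3.65 ± 0.48) and Tnfaip3 (3.52 ± 0.17). Of 15 IRF3 and interferon targets, 14 rose and 0 fell, among them Ifnb1, with no count at rest, Rsad2 (8.93 ± 0.36) and Ifit1 (7.99 ± 0.40). Against stimulated control cells, the NF-kB list had 5 lower and 1 higher without SGK3, 7 and 0 in the double knockout of b1, 6 and 1 with the inhibitor, 3 and 1 in the SGK1 knockout and 5 and 3 in the double knockout of b2. Its median log2 difference ranged from -0.48 to -0.10 over these 5 comparisons. The IRF3 and interferon list had 14, 15, 14, 10 and 14 of 15 lower in the same order and none higher, with medians from -2.91 to -1.51. At rest, 13 of 15 were already lower in the SGK3 knockout, 11 in the SGK1 knockout and 11 in the double knockout, and none higher. Their resting medians were -3.234, -2.345 and -3.182. The response differences from control cells had medians of 0.837, -0.237 and 0.736 in that order. Of the 15, 2, 4 and 5 had a larger response, and 0, 3 and 1 a smaller one. With DMXAA, the differences of Ccl3 and Ccl4 from control cells, -0.23 to -0.92, lay nearer the NF-kB medians. Those of Ccl5, -1.14 to -1.90, lay between the 2 lists in all but the inhibitor comparison. Those of Ccl2, given above, lay below the median of the IRF3 and interferon list in the SGK3 and SGK1 knockouts. In the double knockout of b1 and with the inhibitor they lay between the medians of the lists, and in the double knockout of b2 Ccl2 was not called. Which factor acts on which member was not tested.

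By Pearson correlation of group mean log2 CPM over the 12 groups of b1 and b2, each batch centred on its own mean, Ccl3 and Ccl4 were each other's closest gene (r = 0.998). These points share the strong contrast of rest and DMXAA, and the values describe likeness only. Ccl3 was next closest to Tnf (0.996) and Tnfaip3 (0.995), and Ccl4 to Bbc3 (0.993) and Tnfaip3 (0.992). Ccl5 was closest to Oasl1 (0.993), Cxcl10 (0.992) and Stambpl1 (0.99), and Ccl9 to Tspan17 (0.965), Cyp4v3 (0.95) and Atp6v1g1 (0.948). Ccl2 was closest to Tctn2 (0.985), Gm14269 (0.965) and Rab19 (0.961). Ccl9 correlated with Ccl3 at 0.4 and with Ccl4 at 0.442, although the 3 genes lie in the same group on chromosome 11. For Ccl6, Ccl7 and Ccl22, with few counts, the closest genes were Pym1 (0.978), Cyc1 (0.97) and Dctpp1 (0.967), then 4833428L15Rik (0.984), C030010L15Rik (0.936) and Dusp1 (0.929), and Ing5 (0.979), Golt1b (0.969) and Stim2 (0.965).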

How the data were processed

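RNA of RAW264.7 cells was sequenced as polyA-selected libraries, per the labels' protocols, and 46 of the 50 deposited libraries (b1 and b2) entered the main comparisons. Alignment with STAR 2.7.9a and quantification with StringTie 2.2.0 are named in the submitters' processing notes. The build, GRCm39 with GENCODE M27, is taken from the table names. The authors deposited estimated counts per gene as whole numbers and TPM per gene, the latter scaled by them for length and depth. Strand handling is not given in the sources used here, so overlapping genes cannot be told apart. The counts most often take the value 4 (17.5% of protein-coding values from 1 to 16), and 1 read pair was taken as 4 counts, a unit left in doubt. A floor of 3 pairs is then 12 counts, and bounds against it cover counting error only.

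Counts were fitted in 1 edgeR 4.0.16 model (R 4.3.3; TMM scaling, filterByExpr, robust quasi-likelihood test) with 1 coefficient per group, so the spread is shared by both batches. The 21 comparisons were each adjusted by Benjamini-Hochberg over 18315 genes at a threshold of 0.05. Alternatives used DESeq2 1.42.0, limma 3.58.1 on log2(TPM + 1) and log2(TPM + 0.1), other scaling and filters, each batch alone, and fewer or more libraries. On simulated counts for the double knockout against control cells with DMXAA of b1 (17757 genes tested), the test recovered 66% of 100 genes given a log2 change of 0.5 and 84% of 100 given a change of 1. The changed genes were drawn only from those above a minimum mean count, so these rates do not cover members with few counts. No pair among 71 pairs of replicates was identical. All 9 members are named, with up to 3 called genes of each other list by size of change and the 3 genes most like each member. The members and lists were chosen with earlier results of these data known. The 4 libraries of b3, labelled as reruns, were left out of the fit: the title of library J says no treatment while its treatment label says DMXAA.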

Additional observations from a re-analysis of the deposited data

Results flagged for a closer look

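Among the groups of 4 to 10 libraries, 47 sets of values were tested for a library standing apart from its group, where chance gives about 1 in 20. The libraries standing apart, all of b1, were library 5 of the double knockout with DMXAA for Ccl5 (13.01 CPM) and Ccl7 (0.07457 CPM, from 6 counts), and library 5 of the SGK3 knockout with DMXAA for Ccl3 (418.7 CPM).

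The Ccl9 response to DMXAA exceeded that of control cells by 0.532 on the log2 scale in the SGK1 knockout and by 0.527 in the double knockout of b2. Both differences passed the test itself, and neither did in a fit of b2 alone.

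The 4 libraries of b3 entered no comparison of the main fit, while S, V and W were added to b2 in an alternative. Members in b3, whose libraries all have a negative length slope, lay above the highest resting control library of b2. Ccl3 was at 386.9 CPM in library J, 354.6 in S (SGK1 knockout with DMXAA), 348.9 in V and 359.7 in W (both double knockout with DMXAA). Ccl4 was at 603.5, 525.9, 480 and 545.7 CPM in J, S, V and W. Ccl5 was at 23.43, 16.91, 12.1 and 11.69 CPM, and Ccl2 at 4.374, 3.149, 3.456 and 3.038 CPM, in the same order. Ccl9 passed that level in W, at 246.8 CPM, Ccl7 in J, at 0.2496 CPM, and Ccl22 in V, at 0.1764 CPM. The labels of J conflict on its treatment, and it was assigned to no group.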

How the results depend on the processing

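Counts of members called, of 8, were set against each alternative. With each batch fitted alone the count was 2 for the SGK1 knockout at rest, 0 for it with DMXAA, 1 for the double knockout of b2 with DMXAA, and 0 for each response difference of b2. Of all genes, 1068, 1450 and 2134 were called in the first 3 of these. The number of genes tested is not given for b2 alone, with or without the steep libraries, or with b3 added. Totals over all genes from those fits are thus not shares, and the member counts cannot be compared with a background there. For the response differences of the SGK1 and double knockouts, 75 and 130 were called. In b1 the count of members was 2 for the SGK3 knockout at rest (10.4% of all genes) and 5 for it with DMXAA (22.9%). It was 4 with the inhibitor (20.8%) and 3 for the inhibitor against the double knockout (23.5%). Without the steep libraries it was 3 for the SGK1 knockout at rest, 0 for it with DMXAA, 1 for the SGK3 knockout at rest, 4 for it with DMXAA, 1 for the double knockout at rest, 3 with the inhibitor, 3 for the inhibitor against the double knockout and 1 for the batch difference of the control response. Without them and with b2 alone, an alternative chosen after seeing the data, it was 0 for the SGK1 knockout at rest and with DMXAA, 1 for the double knockout with DMXAA and 0 for each response difference of b2. Of all genes, 279, 1178 and 2453 were called in the first 3 of these. The response differences of the SGK1 and double knockouts had 71 and 213. With b3 knockout libraries added, without a b3 control, both response differences had 0, against 140 and 40 of all genes for the SGK1 and double knockouts. Without the steep libraries, 2305 of 20405 genes were called for the SGK1 knockout with DMXAA. The SGK3 knockout had 1358 at rest and 3049 with DMXAA, and the double knockout 1336 at rest. The inhibitor had 2636, the inhibitor against the double knockout 3090 and the batch difference of the control response 1217.

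DESeq2 called 1 member for the SGK3 knockout at rest, 1 for the double knockout at rest, 2 with the inhibitor and 2 for the response difference of the SGK1 knockout, and its size factors gave 2 with the inhibitor. Among all genes, DESeq2 called 1074, 1464, 2088 and 894 in these comparisons, and its size factors gave 1591. For DESeq2, its size factors, limma and the replicate block, the number of genes tested is not given. Their totals over all genes are likewise not shares. With limma, log2(TPM + 1) gave 1 for each batch difference, 1 for the double against the SGK3 knockout, 2 with the inhibitor and 2 for the inhibitor against the double knockout. The calls over all genes were 567 and 980 for the batch differences and 357, 1303 and 1758 for the others. A prior of 0.1 gave 1 for the double against the SGK3 knockout, 1 for the double knockout at rest and 2 with the inhibitor, where 343, 985 and 1179 of all genes were called. With the replicate block in b1 the count was 1 for the SGK3 knockout at rest, 5 for it with DMXAA, 4 with the inhibitor and 3 for the inhibitor against the double knockout, while same-numbered libraries did not deviate together (57 pairs, r from -0.066 to 0.065). The block called 1773, 3865, 3524 and 3953 of all genes in these comparisons. Dropping the filter on low counts moved none of the counts by over 1.5 times. No member's change or difference that was called reversed its sign under any alternative run. The causes of these differences were not tested.

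Leaving out 1 library gave 3 to 5 members for the responses of control cells and of the SGK3 knockout in b1, 3 to 6 for the SGK1 knockout at rest and 1 to 4 for it with DMXAA. It gave 1 to 2 for the inhibitor against the double knockout, 0 to 2 for the response difference of the SGK1 knockout and 0 to 1 for that of the double knockout. The share of all genes called is not given for these fits. Depth limits Ccl7, Ccl12 and Ccl22, whose counts lie near the floor. It also limits Ccl6 in the stimulated SGK3 knockout of b1 and in b2, where the lowest library of each group had 0 to 9 counts.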
